A study of Mus musculus with 8 samples.

Results

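The choroid plexus is the secretory epithelium of the brain ventricles. Its cells make cerebrospinal fluid by moving ions and water, transport folate, thyroid hormone and other solutes between blood and fluid, and release proteins, above all transthyretin (Ttr), the carrier of thyroxine. They arise from neuroepithelium under factors such as Otx2, form a tight epithelium, and carry tufts of cilia, while the ependymal cells that line the rest of the ventricle are multiciliated and do not make transthyretin at this level.

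The ventricular-subventricular zone (V-SVZ) of 8 mice at postnatal day 90 was examined, 4 with the genotype Tsc2 wt/wt (control) and 4 with Tsc2 mut/mut, with 1 droplet library per mouse. Tsc2 encodes tuberin, which restrains mTORC1. In both genotypes the sorted material carried the tdTomato reporter of the Rosa26 locus, which Cre recombinase switches on, and the mut/mut mice also had conditional Tsc2 alleles. The study's methods describe such mice with Nestin-CreERT2 and 4-hydroxytamoxifen given to pups for cell cultures, and also Cre plasmid electroporation of pups. They do not say in the passage on nuclei which route was used. The paper's heading for the nuclei results speaks of single cell Tsc2 knockout, a term it also uses over the electroporation results. The cells that Cre reached are not known here.

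Choroid plexus-like barcodes were chosen by their counts of unique molecular identifiers (UMIs, 1 per captured RNA molecule). A barcode was a member if it had at least 300 detected genes, under 30% of UMIs from mitochondrial genes, and at least 20 UMIs summed over Ttr, 2900040C04Rik (a long noncoding RNA) and Ecrg4 (the precursor of a secreted peptide, augurin). This gave 546 members of 4475 barcodes that met the first 2 criteria, or 12.2%. The 4 control mice held 100 of them and the 4 Tsc2 mut/mut mice 446. No member's barcode was a member in another library. Ttr, 2900040C04Rik and Ecrg4 were used by the rule, so their height in the members is a description and was not tested, and the same holds for every gene compared between members and the other 3929 barcodes.

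The limit of 20 UMIs fell in a nearly empty range. There were 9 members with 20 to 39 summed UMIs, with a median of 25 summed UMIs among 744 UMIs in all. Just below the limit were 5 barcodes with 10 to 19, with a median of 13, and 6 barcodes with 5 to 9. Another 452 barcodes had 1 to 4 and 3466 had 0. The median member held 1110 UMIs of these genes, 23.0% of its total. Every member had a UMI of Ttr, against 10.9% of the other barcodes, at median depths of 4982.5 and 2071 UMIs.

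A list of 20 other choroid plexus genes, none of them in the rule, was used to check the label. It holds Otx2, Kl, Folr1, Kcnj13, Cldn2, Prlr and similar genes. All 20 were higher in members than in the other barcodes in each of the 7 mice with at least 10 members, as were 10.4% of the 22407 genes with a UMI in either kind of barcode and 69.4% of the 2134 genes with a mean of at least 50 CPM in members (CPM are counts scaled to a total of 1000000 UMIs in the summed barcodes of a mouse). The median log2 fold (pseudocount 10 CPM) was 3.93 over the list, against -0.11 over those 22407 genes. Among genes with at least 50 CPM in members it was 4.00 over 19 listed genes, against 1.46 over the 2134. The median member had UMIs of 11 of the 20 listed genes. At least 3 were detected in 523 members (95.8%) and in 18 of the other barcodes (0.458%). These detection counts were not matched for depth, which was higher in members. By the number of these genes detected per barcode the members were choroid plexus-like.

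Lists of markers of other cells that the tissue or the sort could hold summed to less in members than in the other barcodes, as means over the 7 mice. The choroid plexus macrophage list summed to 0.92 CPM against 56.0 CPM, with 7 of its 9 genes at 0, among them Cd74, Pf4 and Lyve1. The endothelial list summed to 62.0 against 1105 CPM, and 6 of its 10 genes were at 0, including Flt1, Pecam1 and Cdh5, and its most abundant gene was Slco1a4, a thyroxine transporter that choroid plexus epithelium may also express. The mural and fibroblast list summed to 52.9 against 197 CPM, with 6 of 12 genes at 0, including Col1a1 and Lum. The ependymal list summed to 436 against 1810 CPM and the motile cilia list to 745 against 2725 CPM. Counted per barcode the order was the other way for several lists. An endothelial-list UMI was present in 25.1% of members and 5.65% of the other barcodes, a neuronal-list UMI in 98.2% and 90.5%, an ependymal-list UMI in 78.8% and 44.3%, and a motile cilia UMI in 83.2% and 32.1%. These percentages were not matched for depth, which was higher in members. Scaled to 10000 UMIs of each barcode, the median was 3.74 UMIs in members and 0 in the others for the ependymal list and 6.23 and 0 for the motile cilia list, and for the endothelial list it was 0 in both.

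The label "nuclei" was not borne out in the same way. Malat1, a noncoding RNA that stays in the nucleus, had no UMI in 395 of the 546 members (72.3%), against 9.77% of the other barcodes. Its level in members was 36.3, 91.8, 0 and 1074 CPM in control replicates 1 to 4 and 615, 55.2, 154 and 30.4 CPM in Tsc2 mut/mut replicates 1 to 4. The 1074 CPM includes 1 barcode with 295 UMIs of Malat1, and the 615 CPM includes 2 barcodes with 45 and 141. In the other barcodes of each mouse Malat1 was between 18696 and 37990 CPM. In every mouse the members lay far below the other barcodes. Xist, the nuclear RNA that coats the inactive X chromosome, had no UMI in 98.2% of members and in 27.7% of the other barcodes. It reached at most 44.8 CPM in the members of any mouse and was between 987 and 2124 CPM in the others. Y-linked Uty, Kdm5d and Eif2s3y had no UMI in members, and Ddx3y had 1 UMI in Tsc2 mut/mut replicate 1, 2 in replicate 3 and none in the other mice. Xist was present in the other barcodes of all 8 libraries, while the study's methods say that both sexes were used. Pcdh9, a long neural gene, was at 19.9 ± 20.8 CPM (SD, n = 7 mice) in members and 5916 ± 1462 CPM in the other barcodes. As a neural gene it can differ by cell type, so it is not counted here as a sign about nuclei. Because of the low Malat1 and Xist the members are called barcodes here. The cause was not tested.

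**Figure D1:**
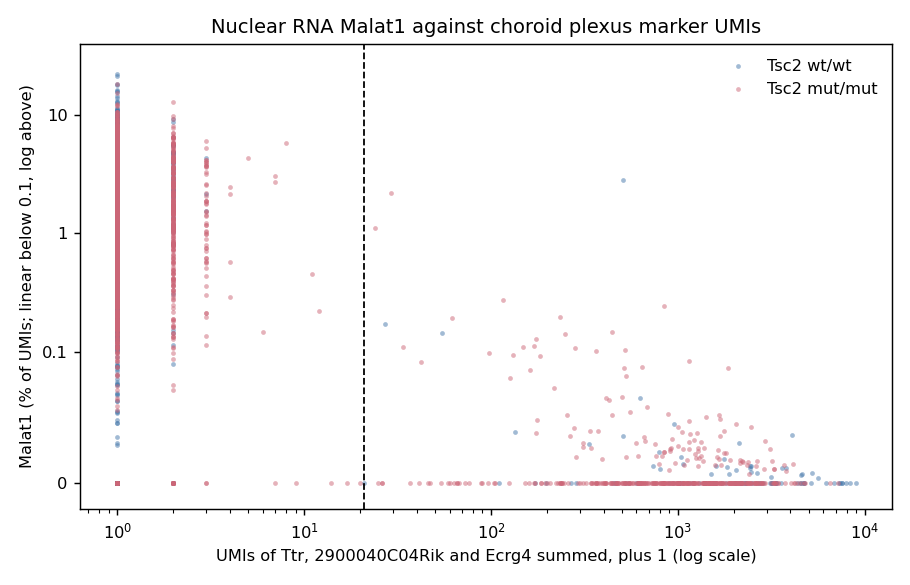
Malat1 as a percentage of each barcode's UMIs (vertical axis, linear below 0.1 and logarithmic above) against the summed UMIs of Ttr, 2900040C04Rik and Ecrg4 plus 1 (horizontal axis, logarithmic), with 1 point for each of the 4475 barcodes, blue for Tsc2 wt/wt and red for Tsc2 mut/mut, and the dashed line at the limit of 20 UMIs. Right of the line 395 of 546 points lie at 0 and only 3 lie above 0.5%, while 75.7% of the points left of the line do.

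Only 3 members had at least 0.5% Malat1, and the highest of the rest had 0.273%. One lay in control replicate 4 and also had 128 UMIs of Lsamp, a neural adhesion gene. The other two lay in Tsc2 mut/mut replicate 1. They held just 23 and 26 UMIs of Ttr, near the limit of the rule, but 116 and 186 UMIs of Trpm3, an ion channel gene with very long introns that hosts a microRNA, and 77 and 168 UMIs of Htr2c, the serotonin receptor of the choroid plexus. These 2 barcodes set the level of Htr2c in that mouse. Htr2c in members was 192, 184, 44.5 and 192 CPM in controls and 958, 187, 170 and 169 CPM in Tsc2 mut/mut replicates 1 to 4, and without members of at least 0.5% Malat1 the 958 became 234. In the same mouse Trpm3 was at 1353 CPM with these barcodes and at 465 CPM without them.

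The number and share of members differed widely between mice. In controls, replicate 1 had 45 members of 321 barcodes (14.0%), replicate 2 had 22 of 746 (2.95%), replicate 3 had 1 of 264 (0.379%) and replicate 4 had 32 of 385 (8.31%). In Tsc2 mut/mut, replicate 1 had 71 of 870 (8.16%), replicate 2 had 27 of 404 (6.68%), replicate 3 had 158 of 1213 (13.03%) and replicate 4 had 190 of 272 (69.9%). Tsc2 mut/mut replicate 4 stood apart from all other mice, and the remaining values of the genotypes overlapped. The exact 95% binomial interval, which covers counting error only, was 64.0% to 75.2% in that mouse and 10.4% to 18.3% in control replicate 1.

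The mean share was 24.4% ± 30.4 (SD, n = 4) in Tsc2 mut/mut and 6.41% ± 6.05 (n = 4) in controls, and the difference of 18.0 percentage points was within the spread of the mice (p = 0.286, exact two-sided permutation test, smallest possible p 0.0286). Without Tsc2 mut/mut replicate 4 it was 2.88 points (exact permutation p = 0.571, smallest possible p 0.0571). As a share of all barcodes with at least 300 genes, whatever their mitochondrial UMIs, members made up 2.34%, 0.296%, 0.0457% and 1.03% in controls and 1.29%, 0.796%, 1.56% and 4.55% in Tsc2 mut/mut. How much choroid plexus each dissection took in was not recorded in the sources used here, so genotype and dissection cannot be told apart for this count.

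**Figure D2:**
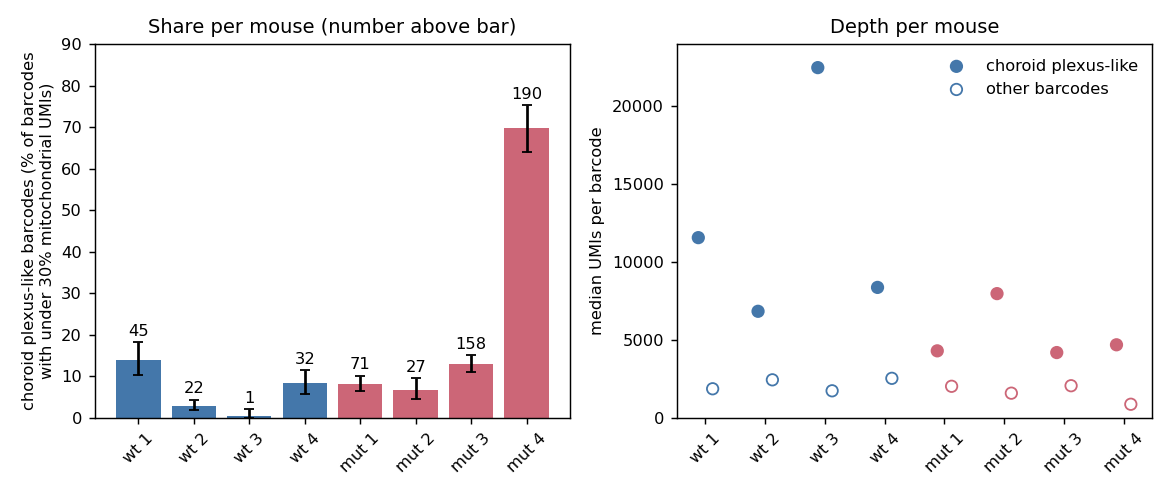
Left, the percentage of barcodes with under 30% mitochondrial UMIs that were choroid plexus-like in each mouse, with exact 95% binomial intervals and the number of members above each bar, and right, the median UMIs per member (filled) and per other barcode (open), with Tsc2 wt/wt in blue and Tsc2 mut/mut in red. Tsc2 mut/mut replicate 4 reaches 69.9% while the other 7 mice lie between 0.379% and 14.0%, and 3 of the 4 Tsc2 mut/mut mice have medians of at most 4696 UMIs per member.

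The depth of members was compared between genotypes, and the difference did not pass. The median UMIs per member were 11572, 6845.5, 22483 and 8378.5 in controls, where replicate 3 is a single barcode, and 4308, 7980, 4197.5 and 4696 in Tsc2 mut/mut. Only Tsc2 mut/mut replicate 2 lay within the control range. The mut/mut mean minus the control mean was -7024 UMIs (adjusted p = 0.0571, exact permutation test, 2 measures), or -3637 without the single barcode of control replicate 3 (adjusted p = 0.114). Mitochondrial genes gave 7.32%, 7.12%, 2.43% and 6.05% of member UMIs in controls and 10.7%, 7.42%, 9.09% and 7.52% in Tsc2 mut/mut, and every Tsc2 mut/mut mouse lay above every control mouse (difference of 2.95 percentage points, adjusted p = 0.0571, exact permutation test), or 1.85 points without control replicate 3 (adjusted p = 0.114). With 3 control and 4 Tsc2 mut/mut mice the smallest possible exact permutation p is 0.0571. Neither comparison without control replicate 3 could therefore pass. With 4 against 4 mice the mitochondrial difference had an unadjusted p of 0.0286 (exact permutation test), the smallest possible. After adjustment over the 2 measures it could pass only if depth reached that p as well. Within the other barcodes the median depth was 1743 to 2544 UMIs in controls and 880 to 2069 in Tsc2 mut/mut.

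Transthyretin dominated the profile. Ttr (chromosome 18 from 20665280 to 20674321, plus strand, GRCm38) took 245424, 174374, 391496 and 254136 CPM in controls and 275813, 208902, 244656 and 256361 CPM in Tsc2 mut/mut, so that in the 7 mice with at least 10 members it made up 237095 ± 34196 CPM. In the other barcodes it was 74.6 ± 84.8 CPM. Single members ranged from 0.405% to 58.4% of UMIs from Ttr, with a median of 22.6% and quartiles of 15.1% and 32.5%. Mouse medians lay between 16.9% and 26.8% apart from the single barcode of control replicate 3 at 39.1%. 2900040C04Rik was at 2461 ± 537 CPM and Ecrg4 at 2002 ± 194 CPM over the 7 mice. Enpp2, which encodes the lysophospholipase autotaxin, was at 12872 ± 3483 CPM against 358 ± 73.2 CPM in the other barcodes. Sostdc1, a secreted antagonist of BMP and Wnt signals, was at 768 ± 230 CPM against 1.42 ± 3.24 CPM.

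The 25 genes with the largest median log2 fold over the other barcodes of the same mouse (at least 50 CPM in members, pseudocount 10 CPM) were higher in members in each of the 7 mice. Several serve hormone and growth factor signals, among them Kl, the klotho co-receptor of FGF23, at 681 ± 231 CPM, Prlr, the prolactin receptor, at 608 ± 280 CPM, and Igfbp2, an insulin-like growth factor binding protein, at 1553 ± 563 CPM. Others move or bind solutes. Folr1, the folate receptor, was at 604 ± 286 CPM, Kcnj13, an inward rectifier potassium channel, at 568 ± 221 CPM, Clic6, a chloride channel family member, at 441 ± 40.9 CPM, and Fxyd1, a regulator of the sodium pump, at 1882 ± 215 CPM. Ace, the angiotensin-converting enzyme, F5, coagulation factor V, Wfdc2 and the protease inhibitor Spint2 were also among them. Mitochondrial energy genes of the nuclear genome stood in the same list, with Atp5g1, a subunit of the ATP synthase ring, at 2697 ± 423 CPM against 79.1 ± 70.2 CPM, and Cox8b, a cytochrome oxidase subunit, at 1033 ± 347 against 2.07 ± 3.03 CPM. Prdx5, a mitochondrial peroxidase, was at 1322 ± 182 against 54.7 ± 41.7 CPM.

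**Figure D3:**
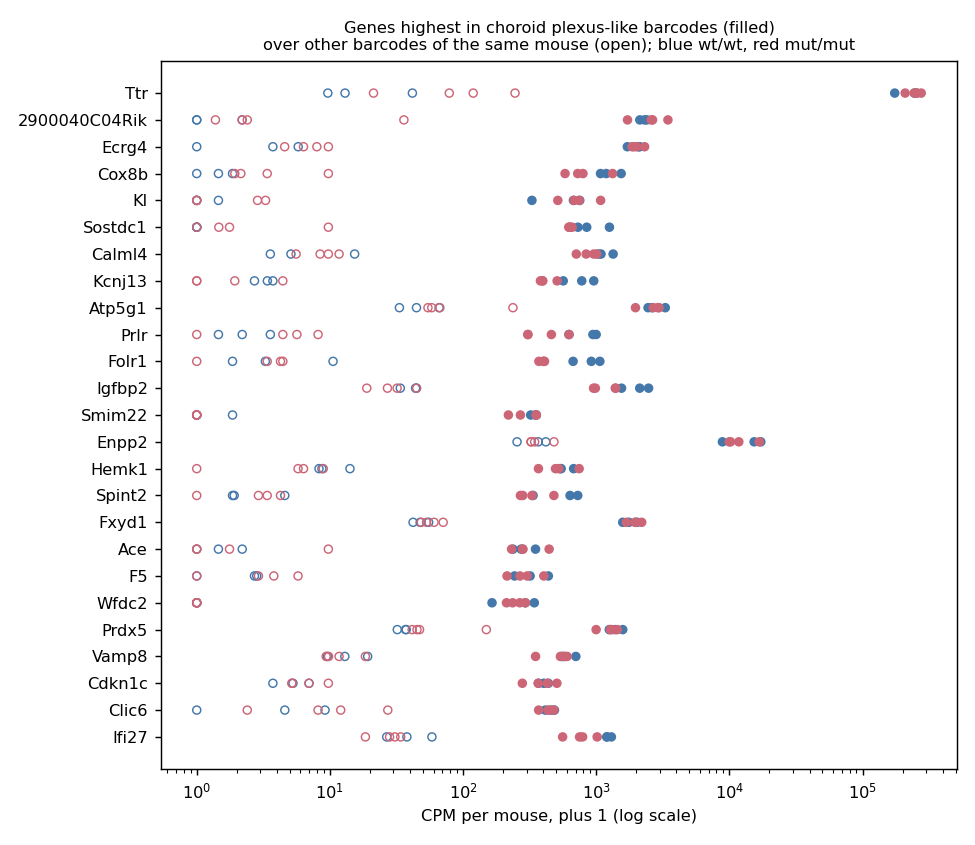
CPM plus 1 (logarithmic axis) of the 25 genes with the largest median log2 fold in choroid plexus-like barcodes, with a filled point for the members and an open point for the other barcodes of each of the 7 mice that had at least 10 members, Tsc2 wt/wt in blue and Tsc2 mut/mut in red. Filled and open points of a gene do not overlap, and Ttr lies between 174374 and 275813 CPM in members.

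Genes of the choroid plexus by function were present to different degrees. Of 30 genes for secreted proteins 16 were higher in members in each of the 7 mice, as were 15 of 26 for ion and water transport, 14 of 29 for other solutes, 7 of 22 transcription factors, 7 of 21 for tight junctions and polarity, and 3 of 19 receptors. These counts span 15.8% (receptors) to 57.7% (ion and water transport) of a list, beside 10.4% of all genes with a UMI. Among genes with at least 50 CPM in members they were 15 of 23 secreted, 14 of 17 ion and water, 10 of 13 solute, 4 of 8 transcription factor, 4 of 4 tight junction and 2 of 3 receptor genes, beside 69.4% of all genes at that level. The median log2 fold of the genes at that level was 2.71 for secreted, 2.81 for ion and water, 2.64 for solute, 0.13 for transcription factor, 3.28 for tight junction and 3.73 for receptor genes, beside 1.46 for all 2134. Neither the counts nor the medians were tested, since members were chosen on the same UMIs. Apoe was at 2811 ± 464 CPM, Cst3 at 1865 ± 280 CPM, Clu at 1677 ± 321 CPM and Ptgds at 1464 ± 224 CPM. Rbp4, Cp and Gdf10 of the secreted list had no UMI. Aqp1, the water channel of the apical membrane, was at 60.3 ± 14.9 CPM, and Atp1b1, a sodium pump subunit, at 550 ± 178 CPM. Otx2 was at 224 ± 21.5 CPM and Msx1 at 222 ± 51.6 CPM. Cldn2, the paracellular channel claudin of leaky epithelia, was at 67.7 ± 17.1 CPM, while Cdh1 had no UMI.

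The ependymal lining is the neighbour of the choroid plexus, and 311 other barcodes with at least 5 summed UMIs of the cilia genes Cfap299, Dnah12 and Spag16 were taken as ependymal-like. Only 3 members reached that limit. Malat1 was between 15840 and 38160 CPM in the ependymal-like barcodes of the 8 mice, within reach of the other barcodes and far above the members. Dnah12, a dynein of motile cilia, and Tmem212 had no UMI in members. Rsph1, a radial spoke gene, was at 266, 374, 222 and 230 CPM in the control members and 182, 319, 191 and 248 CPM in those of Tsc2 mut/mut. In the ependymal-like barcodes it was 225, 115, 288 and 199.05 CPM in controls and 115, 155, 116 and 0 CPM in Tsc2 mut/mut, where replicate 4 is 1 barcode. Within a mouse Rsph1 was higher in members in 7 of the 8 mice and lower in control replicate 3, which has 1 member. Foxj1, the regulator of motile ciliogenesis, was at 44.3 ± 24.2 CPM in members and 99.0 ± 53.3 CPM in ependymal-like barcodes of the same 7 mice.

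Of 16 astrocyte and neural stem cell genes 1 was higher in members in each of the 7 mice (6.25%, beside 10.4% of all genes with a UMI). Their list summed to 2870 CPM in members, of which Clu was the most abundant, and to 26905 CPM in the other barcodes. The neuronal list summed to 1029 CPM against 4041 CPM and was led by Ppp1r1b (402 ± 72.0 CPM). The oligodendrocyte list summed to 296 CPM against 4707 CPM, led by Mbp at 215 ± 104 CPM, and no gene of it was at 0 in all members.

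To ask whether the genotypes differed within the choroid plexus-like barcodes, UMIs were summed over the members of each mouse and compared with edgeR's quasi-likelihood test. control replicate 3 had 1 member and was left out, which leaves 3 control and 4 Tsc2 mut/mut mice. Of 3551 genes tested, 15 differed at an adjusted p below 0.05 (Benjamini-Hochberg), 0.422% of those tested. Of these, 4 were higher in Tsc2 mut/mut (0.113% of genes tested) and 11 were lower (0.310%). DESeq2 called 34 genes, 5 higher and 29 lower, of which 12 were shared. The balance moved with the setting. It was 9 higher and 9 lower with the replicate number as a block, and 33 and 37 with no filter on low counts. Without control replicate 4 it was 5 and 5, without Tsc2 mut/mut replicate 2 12 and 5, and without control replicate 2 17 and 87. The median log2 fold change of all genes tested was 0.01. An unadjusted p under 0.05 was reached by 498 genes, or 14.0%. No gene passed when only members of 4000 to 10000 UMIs were used (1877 genes tested, 187 with an unadjusted p under 0.05), where Tsc2 mut/mut replicate 2 also dropped out for having 9 such members. The 12 of the 15 genes that could be fitted there kept their direction, with log2 changes of -1.07 for Folr1, -1.63 for Glmp, -1.19 for Bsg, -1.44 for Bst2, -5.20 for Rnaset2b and 1.07 for Mt1, beside -1.08, -1.28, -0.91, -1.08, -5.84 and 1.42 in all members. Without control replicate 1 no gene passed either (276 with an unadjusted p under 0.05), and without control replicate 2 there were 104. With each of the 7 mice left out in turn, Rnaset2b, Folr1, Mt2 and Mt1 passed in 6 of 7 fits, Glmp and Tmed3 in 4, Bhlhe41, Bst2 and Sdf2 in 3, and Gt(ROSA)26Sor, Sdf2l1, Bsg, Fkbp2, Actg1 and Ccdc85b in 2.

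The metallothioneins, which bind zinc and copper, were higher in Tsc2 mut/mut. Mt2 (chromosome 8 from 94172664 to 94173568) was 5.18, 26.2 and 6.98 CPM in control replicates 1, 2 and 4 and 59.7, 46.7, 63.1 and 63.1 CPM in Tsc2 mut/mut. These were only 3, 4 and 2 UMIs in the controls and 20, 11, 43 and 58 UMIs in Tsc2 mut/mut. The groups did not overlap, and the log2 fold change was 2.77 ± 0.43 (SE, adjusted p = 0.0031, edgeR). The single member of control replicate 3, outside the fit, had 44.5 CPM of Mt2 from 1 UMI, close to the lowest Tsc2 mut/mut mouse. Mt1 was 238, 525 and 255 CPM in controls and 672, 726, 859 and 875 CPM in Tsc2 mut/mut, with a log2 fold change of 1.42 ± 0.21 (adjusted p = 0.0031, edgeR). The single member of control replicate 3, which was outside the fit, had 1245 CPM of Mt1, above all Tsc2 mut/mut mice, from 28 UMIs, and with all 8 mice fitted Mt1 did not pass (log2 change 1.12, adjusted p = 0.308, edgeR). Low-count barcodes of at least 100 and fewer than 200 genes, taken here as a measure of free RNA, held more of both genes than these members, with Mt1 between 2712 and 3902 CPM and Mt2 between 315 and 434 CPM over the 8 libraries. The edgeR fits of low-count and of other barcodes, here and below, used the same mice as the member fit, without control replicate 3. In these low-count barcodes the log2 change of Tsc2 mut/mut was 0.26 ± 0.14 for Mt1 and 0.20 ± 0.14 for Mt2. Neither passed (adjusted p = 0.79 and 0.87, edgeR). The median depth of members was below every control in 3 of the 4 Tsc2 mut/mut mice, a difference that did not pass. Among members of 4000 to 10000 UMIs the log2 change of Mt1 was 1.07 and did not pass (adjusted p = 0.383, edgeR). The part of free RNA in the result was not tested.

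Bhlhe41, a transcriptional repressor of the circadian clock, was 13.8, 19.7 and 27.9 CPM in controls and 32.8, 85.0, 74.9 and 64.1 CPM in Tsc2 mut/mut (log2 change 1.83 ± 0.37, adjusted p = 0.0282, edgeR). It was also higher in the low-count barcodes of Tsc2 mut/mut (log2 change 0.95 ± 0.17, adjusted p = 0.0206, edgeR). Ccdc85b was 57.8 ± 5.04 CPM (SD, n = 3) in controls and 120 ± 23.1 CPM (n = 4) in Tsc2 mut/mut, and its log2 fold change of 1.08 passed the edgeR test.

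Folr1, which carries folate across this epithelium, was lower in Tsc2 mut/mut. It was 1064, 669 and 917 CPM in control replicates 1, 2 and 4 and 370, 408, 402 and 399 CPM in Tsc2 mut/mut. The 4 mut/mut mice lay close together and below every control mouse, with a log2 fold change of -1.08 ± 0.17 (adjusted p = 0.0031, edgeR). The single barcode of control replicate 3 had 712 CPM. Folr1 kept its direction in all 20 alternatives fitted and passed in 18 of them.

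Sdf2l1 and Sdf2, which work with chaperones of the endoplasmic reticulum, Fkbp2, a prolyl isomerase, and Tmed3, a cargo receptor of vesicle transport, were also lower and passed the edgeR test. Sdf2l1 was 107, 39.4 and 126 CPM in controls and 35.8, 34.0, 22.0 and 30.4 CPM in Tsc2 mut/mut, where the control replicate 2 value came close to those of Tsc2 mut/mut. Fkbp2 was 306 ± 53.9 CPM in controls and 157 ± 22.0 CPM in Tsc2 mut/mut. Tmed3 was 159 ± 27.9 against 62.6 ± 17.0 CPM and Sdf2 was 104 ± 8.36 against 44.2 ± 13.7 CPM. Hspa5, a chaperone of the endoplasmic reticulum and a member of the stress response list, none of whose genes passed, was 556, 348 and 576 CPM against 394, 255, 167 and 206 CPM and did not pass (log2 change -0.91, adjusted p = 0.28, edgeR). Glmp, a lysosomal membrane protein, was 131 ± 11.7 against 53.0 ± 9.90 CPM (log2 change -1.28, adjusted p = 0.0173, edgeR).

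Of the other lower genes, Bsg, the basigin partner of lactate transporters, was 4766, 2722 and 3907 CPM in controls and 1881, 2205, 1798 and 1780 CPM in Tsc2 mut/mut, with a log2 fold change of -0.91 ± 0.18 (adjusted p = 0.0304, edgeR). Actg1, cytoplasmic gamma actin, was 539 ± 25.7 against 297 ± 53.2 CPM. The single member of control replicate 3, outside the fit, had 267 CPM, and with all 8 mice fitted Actg1 did not pass (log2 change -0.68, adjusted p = 0.0661, edgeR). Bst2, an interferon-induced membrane protein, was 285, 184 and 174 CPM against 65.7, 123, 88.1 and 117 CPM. Of the 12 interferon and antigen presentation genes 3 were tested, all with a negative log2 fold change, as had 1757 of the 3551 genes tested, and Bst2 passed, beside 0.310% of all genes called lower. B2m was at -1.19 (adjusted p = 0.16) and Ifitm3 at -0.65 (adjusted p = 0.18) on the edgeR log2 scale.

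The largest difference was in Rnaset2b, a lysosomal ribonuclease gene (chromosome 17 from 6970634 to 7011299). It had 49, 9 and 19 UMIs in control replicates 1, 2 and 4 and 1, 0, 0 and 1 UMIs in Tsc2 mut/mut, or 84.6, 59.0 and 66.3 CPM against 2.99, 0, 0 and 1.09 CPM. From the 2 and 77 summed UMIs the ratio of mut/mut to control was 0.0122 with an exact counting interval of 0.00145 to 0.0455, and the edgeR fold change depends on the prior count. The difference was present beyond the members. In low-count barcodes it had 17, 68, 12 and 25 UMIs in the 4 control mice and 3, 1, 3 and 3 UMIs in the 4 Tsc2 mut/mut mice. The difference there passed in the fit without control replicate 3 (adjusted p = 1.1e-06, edgeR). Rnaset2a, a near-identical copy on the same chromosome (8115445 to 8148097), had 205 UMIs in Tsc2 mut/mut and 207 in control members, a ratio of 0.464 per total UMIs with a counting interval of 0.381 to 0.566. In low-count barcodes it had 423 UMIs in Tsc2 mut/mut and 237 in controls, a ratio of 1.05 (0.894 to 1.24), so the summed count was not lower there. These ratios sum the mice of a genotype, and their intervals cover counting error only, not the spread between mice. Reads that fit both copies could be dropped or split, so the level of each is uncertain. Tsc2 lies on the same chromosome, from 24595816 to 24632630.

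Gt(ROSA)26Sor, the noncoding transcript of the locus that carries the reporter (chromosome 6 from 113067428 to 113077333), was 449, 315 and 481 CPM in control replicates 1, 2 and 4 and 209, 208, 208 and 209 CPM in Tsc2 mut/mut. Its log2 change was -0.92 ± 0.18 (adjusted p = 0.0271, edgeR). In low-count barcodes it was also lower in Tsc2 mut/mut, by a log2 fold change of -0.87 ± 0.13 (adjusted p = 0.00084, edgeR). In the other barcodes the value was -1.29 ± 0.24 and did not pass (adjusted p = 0.26, edgeR).

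Tsc2 itself gave too few UMIs to be tested in members. It was at 12.1, 6.56, 0 and 10.5 CPM in controls and 17.9, 8.50, 5.87 and 6.52 CPM in Tsc2 mut/mut, and the groups overlapped. These were 7, 1, 0 and 3 UMIs against 6, 2, 4 and 6. 3′ counts of Tsc2 do not report the deleted exons, so they do not check the labels. With 0.422% of all genes called, a count of 0 in lists of this size says little about a list. Of 30 genes of the Tsc2 and mTOR pathway 12 were tested and none passed, with a median log2 fold change of 0.17. Rps6, a target of the pathway's S6 kinases, was 551, 722 and 520 CPM against 466, 561, 665 and 706 CPM. Of 24 cholesterol synthesis genes 7 were tested and none passed, with a median of -0.02. Of 15 stress response genes measured 5 were tested and none passed, with a median of -0.13.

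**Figure D4:**
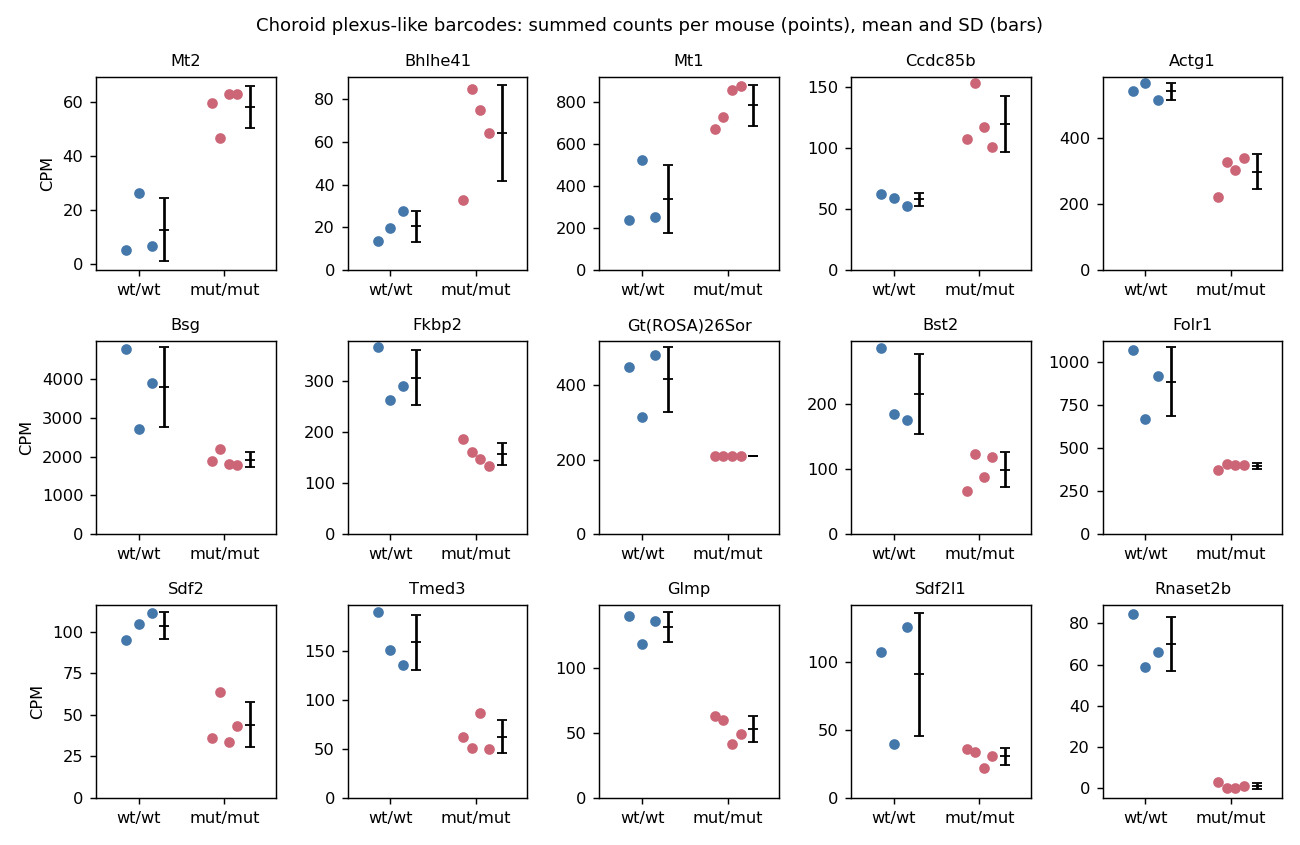
CPM in choroid plexus-like barcodes for the 15 genes with an adjusted p below 0.05 in edgeR, ordered by log2 fold change, with 1 point per mouse for 3 control (blue) and 4 Tsc2 mut/mut mice (red) and bars for the mean and SD of each genotype. Mt2, Bhlhe41, Mt1 and Ccdc85b are higher in Tsc2 mut/mut and the other 11 are lower, with Rnaset2b at 59.0 CPM or more in each control mouse and at most 2.99 CPM in mut/mut.

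The choroid plexus gene groups were described by their counts beside the background of 0.422% of genes called. Of 25 secreted protein genes tested none passed, 8 had a positive log2 fold change, and the median was -0.11. Of 19 ion and water transport genes none passed and the median was 0.02, and Kcnj13 was lowest in p among them (957, 564 and 778 CPM against 508, 395, 380 and 395 CPM, log2 fold change -0.80, adjusted p = 0.11, edgeR). Of 16 solute transport genes Folr1 passed, 3 were positive and the median was -0.25. Of 7 receptors none passed and the median was -0.03. Of 10 transcription factors none passed, 9 were positive and the median was 0.40, with Sox9 at 0.70 (adjusted p = 0.12) and Otx2 at 0.20 (adjusted p = 0.65) in edgeR. Of 5 tight junction and polarity genes none passed and the median was -0.34. Of 6 motile cilia genes none passed and the median was 0.30. Among the 19 tested genes of the list used to check the label, Folr1 passed, 6 were positive and the median was -0.34, with Prlr at -0.92 (adjusted p = 0.29) and Sostdc1 at -0.50 (adjusted p = 0.23) in edgeR.

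Lists of other cell types had positive median log2 changes in places, but none of their genes passed. The 3 oligodendrocyte genes tested had a median log2 fold change of 1.89 and the list summed to 140, 341, 178 and 112 CPM in controls and 346, 178, 528 and 424 CPM in Tsc2 mut/mut. The 4 neuronal genes tested had a median of 1.03, and their list summed to 779, 1135, 534 and 760 CPM against 1230, 879, 1391 and 1031 CPM. The ranges overlapped in both lists. The part of RNA from other cells, and of depth, in the results above was not tested.

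Because the 15 genes were chosen for a genotype difference in members, a larger difference there than in the other barcodes of the same mice follows in part from that choice. When the difference in log2(CPM + 1) between members and other barcodes was compared between genotypes over the 8 mice, control replicate 3 with its single member among them, no gene passed after adjustment over the 15 tests (lowest adjusted p = 0.107, exact permutation tests). 4 genes reached p = 0.0286, the smallest that these permutations of 4 against 4 mice allow, and the design could give an adjusted p below 0.05 only if most of the 15 genes did so, so this count says little. Folr1, Rnaset2b and Sdf2l1 had too few UMIs in the other barcodes for edgeR. Of the 12 genes fitted in both, none passed in the other barcodes. The log2 change there was -0.02 ± 0.32 for Glmp, 0.15 ± 0.29 for Fkbp2, -0.46 ± 0.25 for Sdf2 and 0.65 ± 0.42 for Mt1. It was -1.29 ± 0.24 for Gt(ROSA)26Sor, 0.77 ± 0.23 for Bhlhe41, -0.69 ± 0.59 for Bst2 and 0.04 ± 0.28 for Mt2. The rest were -0.42 ± 0.38 for Tmed3, -0.36 ± 0.49 for Bsg, 0.28 ± 0.37 for Ccdc85b and -0.02 ± 0.23 for Actg1. Nothing here is called particular to members.

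Ttr, 2900040C04Rik and Ecrg4 were compared between genotypes where the rule had not used them. In barcodes chosen by at least 3 genes of the list of 20, Ttr was 239182, 169098, 182747 and 254253 CPM in controls and 258362, 206235, 241643 and 257540 CPM in Tsc2 mut/mut. The genotypes overlapped, and the difference in log2(CPM + 1) was 0.20 (17.87 ± 0.15 against 17.67 ± 0.29, SD, n = 4, adjusted p = 0.371, exact permutation test over 3 genes). It was 0.36 for 2900040C04Rik and 0.20 for Ecrg4 (both adjusted p = 0.371, exact permutation tests). These sizes rested on single libraries. The difference of Ttr was 0.10 without control replicate 2. Without control replicate 3 it was 0.14 for 2900040C04Rik and 0.038 for Ecrg4, and for 2900040C04Rik it was 0.57 without Tsc2 mut/mut replicate 1 and 0.20 without Tsc2 mut/mut replicate 2. Nearly all of these barcodes were members, 523 of 541, but in control replicate 3 only 1 of 6.

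Ttr was also compared between libraries in low-count barcodes, taken as above as a measure of free RNA. Whether these hold only free RNA was not tested. In low-count barcodes Ttr was 241, 48.9, 11.0 and 130 CPM in controls and 633, 70.3, 255 and 194 CPM in Tsc2 mut/mut. control replicate 3, with 1 member, was the lowest. The difference in log2(CPM + 1) was 1.72 (adjusted p = 0.257, exact permutation test over 3 genes), and the genotypes overlapped. It was 0.90 without control replicate 3. On average a low-count barcode held between 0.00334 and 0.235 UMIs of Ttr, depending on the library, against a median of 1085.5 UMIs per member.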

How the data were processed

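The authors sorted tdTomato-positive nuclei, made 10x Genomics 3′ libraries and counted reads with Cell Ranger 7.0.1 against GRCm38, and they used Seurat 4. The deposited values are raw counts of UMIs per gene in 60000 barcodes per library, without normalization. Totals ran from 11182335 to 36773832 UMIs per library, and the number of members limits the precision. The sort gated out doublet events, no doublet caller was run, and doublets formed in droplets were not removed.

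Counts were summed per mouse over members. Mice with at least 10 members were compared with edgeR 4.0.16 (TMM, filterByExpr, robust quasi-likelihood test, Benjamini-Hochberg adjustment, threshold 0.05) in R 4.3.3. DESeq2 1.42.0 was an alternative. For single values, exact permutation tests (two-sided) were run in scipy 1.17.1. Mice are the replicates. Gene positions came from GENCODE M21. The edgeR script was tested on simulated data.

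Genes named were the 5 markers and Tsc2, the genes passing the threshold, the 25 highest over other barcodes, from each list up to 6 with the highest mean CPM, and for other cell types the genes at 0. Others (Rnaset2a, Pcdh9, Aqp1, Cdh1, Rbp4, Cp, Gdf10), and Lsamp in single barcodes, were named after their values were seen. The members and lists were chosen with earlier results of these data known. Replicate numbers shared by the genotypes did not pair the mice.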

Additional observations from a re-analysis of the deposited data

Results flagged for a closer look

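In groups of 4 mice, about 1 in 20 values is expected to stand out by the gap criterion used here, which compares the distance of the highest or lowest mouse from its nearest neighbour with the range of the group. Tsc2 mut/mut replicate 4 stood out with 69.9% choroid plexus-like barcodes, against 6.68%, 8.16% and 13.03% in the other mice of its genotype. Its other barcodes were also the shallowest, with a median of 880 UMIs. Tsc2 mut/mut replicate 2 stood out with a median of 7980 UMIs per member. The single member of control replicate 3 stood out with 267 CPM of Rnaset2b and 133 CPM of Ccdc85b, from a barcode of 22483 UMIs.

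Barcodes with at least 300 genes and 30% or more mitochondrial UMIs entered the comparisons above only in the denominator of the share of all barcodes with at least 300 genes. Of these, 45 had at least 20 summed UMIs of Ttr, 2900040C04Rik and Ecrg4. They made up 0.0624%, 0.0150%, 0 and 0.0738% in controls and 0.215%, 0.0669%, 0.257% and 0.154% in Tsc2 mut/mut. The mean was 0.173% in Tsc2 mut/mut and 0.0378% in controls (p = 0.0571, exact two-sided permutation test, n = 4 each).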

How the results depend on the processing

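The count of 15 genes was 34 with DESeq2 and 70 with no filter on low counts. It was 6 in barcodes chosen by the list of 20 genes (5 shared). It was 0 in members of 4000 to 10000 UMIs, a range chosen after seeing the data. With 1 mouse left out it ran from 0 to 104: 0 without control replicate 1, 104 without control replicate 2, 34 without Tsc2 mut/mut replicate 1, 5 without replicate 3 and 4 without replicate 4 of Tsc2 mut/mut. It stayed within 1.5 times in the other 11 settings, among them the replicate block, though not always with the same genes. Without control replicate 4 it was 10 (8 shared), and without Tsc2 mut/mut replicate 2 it was 17 (6 shared). Members with under 0.5% Malat1 gave 20 (15 shared) and those with at least 3 genes of the list of 20 gave 16 (15 shared). Both of these settings, and all 8 mice (22, 13 shared), were added after seeing the data. With the replicate block 18 genes passed, 7 of them shared, but same-numbered mice correlated at 0.13, 0.05 and -0.22, so the numbers are not taken as pairs. None of the 15 genes changed direction in any setting in which it was fitted. At the level of single genes, Folr1 passed in 18 of 20 settings, Mt2 in 18 of 19, Rnaset2b in 17 of 19, Mt1 in 17 of 20, Glmp and Tmed3 in 14 of 20, Ccdc85b in 11 of 20, Actg1 in 10 of 20 and the other 7 in 12 or 13. In barcodes with at least 5 genes of the list of 20 the difference in log2(CPM + 1) became -0.0659 for Ttr and -0.0599 for Ecrg4. With at least 2 such genes it was 0.46 and 0.45. The difference in share kept its direction and missed the threshold in all 18 settings. It was lowest at 0.283 points (all barcodes with at least 300 genes, without Tsc2 mut/mut replicate 4, added after seeing the data). It was highest at 24.2 points (under 10% mitochondrial UMIs). With 1 mouse left out the smallest possible p is 0.0571 (exact permutation test), and with the replicate block it is 0.125 (sign flips). Those settings could not pass, so their misses say nothing. With 22 to 45 members in each control mouse of the fit, genes under a few UMIs per mouse could not be tested.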

Other observations

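The 18 barcodes outside the members with at least 3 of the 20 listed genes had a median of 0 summed UMIs of the rule genes and 4780.5 UMIs in all, and 16 of them had at least 0.5% Malat1. In the 250 bases before the start of each gene (RefSeq, GRCm38.p6), the letters TAATCC on either strand, the core that Otx factors bind, stood in 1 of the 18 promoters found for the 25 leading genes (Ace), and in 6.38% of all 27025 promoters. GTAAACA, a forkhead core, stood in none of the 18 and in 3.09% of all.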
